A study of Mus musculus with 9 samples.

Results

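The genes described here encode 7 Wnt ligands (Wnt3, Wnt4, Wnt5b, Wnt6, Wnt7b, Wnt8a and Wnt9a) and the proteins that make Wnt ligands ready for release, Porcn and Wls. They are 9 of the 38293 genes in the count table and were chosen by name, with earlier results of these data known. RNA-seq was carried out on E14, a mouse embryonic stem cell line of strain 129/Ola, in 3 culture states with 3 biological replicates each. mESC-2i, labelled naive, were grown in N2B27 medium with leukaemia inhibitory factor (LIF), the MEK inhibitor PD0325901 and the GSK3 inhibitor CHIR99021. mESC-ser, labelled primed, were grown on gelatin in DMEM with foetal bovine serum and LIF. EpiLC, epiblast-like cells, were derived from the naive cells on fibronectin in N2B27 with activin A, bFGF and KSR. The GSK3 inhibitor, which acts on the Wnt pathway downstream of its receptors, was thus present in mESC-2i and absent from the media of the other groups. All groups come from 1 cell line, and the time of EpiLC culture is not stated in the labels.

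Wnt proteins are secreted, lipid-modified signals that act over short distances. Porcn, an acyltransferase of the endoplasmic reticulum, attaches a monounsaturated fatty acid to a serine of the ligand, and Wls, a membrane protein, then carries the acylated ligand to the cell surface. At the receiving cell the ligand binds a Frizzled receptor, either with Lrp5 or Lrp6, which stabilises beta-catenin, or with other co-receptors such as Ror1 and Ror2. In the early mouse embryo Wnt3 is needed for the primitive streak, and in cultured embryonic stem cells Wnt signalling favours the naive state.

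The serine acylated by Porcn lies in a conserved stretch of the ligands and links the ligand genes to the secretion genes. It was located in the coding sequences of the GENCODE M21 annotation (GRCm38, the assembly of mm10), where each of the 19 mouse Wnt ligands held the surrounding motif once. The 30 coding bases around its codon are shown for 6 of the 7 ligands, from the 5′ to the 3′ end of the transcript, with the serine codon in capitals.
Wnt3: aaatgccacgggttgTCCggcagctgcgag
Wnt4: aagtgtcacggggtgTCGggctcctgcgag
Wnt5b: aaatgtcacggagtcTCCgggtcctgcagc
Wnt6: aagtgccatgggcttTCGggttcctgcgct
Wnt7b: aagtgtcacggtgtgTCAggctcctgtacc
Wnt9a: aaatgccatggtgtgTCTggctcctgcacc
The codon encodes residue 212 of Wnt3, 212 of Wnt4, 236 of Wnt5b, 227 of Wnt6, 213 of Wnt7b and 221 of Wnt9a. The 6 stretches were identical at 16 of 30 bases. Wnt7b and Wnt9a were the most alike pair, at 25 of 30 bases, and the least alike pairs, Wnt3 with Wnt7b and Wnt5b with Wnt6, shared 19. The serine codon itself was TCC in 2 genes, TCG in 2, TCA in 1 and TCT in 1. Each stretch lies inside a single coding exon. These are chr11:103812311-103812340 in exon 4 of 5 of Wnt3, chr4:137296342-137296371 in exon 5 of 5 of Wnt4, and chr6:119433797-119433826, on the minus strand, in exon 5 of 5 of Wnt5b. The others are chr1:74784169-74784198 in exon 4 of 4 of Wnt6, chr15:85537809-85537838, on the minus strand, in exon 4 of 4 of Wnt7b, and chr11:59330923-59330952 in exon 4 of 4 of Wnt9a.

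Libraries held 7187576 to 16829549 counts. Levels below are counts scaled to library size (CPM) with TMM factors, given as mean ± SD (n = 3). A gene was called in a comparison at an adjusted p under 0.05 in the quasi-likelihood test of edgeR with an absolute log2 fold change over 0.5. Of the core pluripotency genes, Pou5f1 had similar counts in mESC-2i and EpiLC, while Sox2 and Nanog had far fewer counts in every EpiLC library than in any mESC library. The naive markers summed to 2130 to 2300 CPM in mESC-2i, 1200 to 1310 in mESC-ser and 29.1 to 35.9 in EpiLC. Zfp42, 1 of the 4 naive markers, had more counts in every mESC-ser library than in any of mESC-2i. The formative epiblast markers summed to 71.9 to 82.6 CPM in mESC-2i, 598 to 713 in mESC-ser and 1630 to 1700 in EpiLC. Marker lists of other cell types also differed between the groups. Primitive endoderm markers summed to 9.1 to 9.73 CPM in the mESC-2i libraries, 13.6 to 15.7 in those of mESC-ser and 1.38 to 2.62 in EpiLC, where Sox7 and Pdgfra, 2 of the 5, did not exceed 3 counts in any library. Trophectoderm markers summed to 16.3 to 18.6, 11.2 to 13.1 and 0.251 to 0.547 CPM, with Elf5, Gata3 and Hand1, 3 of the 4, at no more than 3 counts in EpiLC, Elf5 and Hand1 also in mESC-2i and Elf5 in mESC-ser. This sum hides opposite changes, since Cdx2 had 119 to 206 counts in mESC-2i and 27 to 50 in mESC-ser. Gata3 went the other way, with 11 to 18 and 61 to 92, as did Hand1, with 0 to 1 and 46 to 86. Primitive streak markers summed to 106 to 122, 12.3 to 15.9 and 13.1 to 14.5 CPM, with Mesp1, 1 of the 5, at no more than 3 counts in all groups. Fibroblast markers, of which all 4 exceeded that floor in at least 1 library of each group, summed to 43.2 to 51.4, 57.3 to 77.5 and 31 to 38.8 CPM. Opposite changes are hidden here too. The 3 collagens had fewer counts in every EpiLC library than in any mESC library. In EpiLC they had 5 to 23 counts for Col1a1, 18 to 37 for Col1a2 and 0 to 5 for Col3a1. Thy1 went the other way, with more counts in every EpiLC library than in any mESC library, and made up most of the EpiLC sum. Neural markers summed to 147 to 177, 128 to 134 and 35.8 to 36.7 CPM, with Neurog2, 1 of the 4, at the floor in mESC-ser and EpiLC. Tubb3 made up most of this sum in each group and overlapped in counts between the mESC groups. Behind it the other neural markers changed in opposite directions. Pax6 had far more counts in every mESC-ser library than in any of mESC-2i, while Sox1 and Neurog2 had fewer. The part of such cells in the member levels was not tested, and in bulk RNA fewer cells of a type and less RNA per cell cannot be told apart.

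Porcn, Wnt7b, Wnt9a, Wnt4 and Wnt3 were higher and Wnt5b and Wnt6 lower in mESC-ser than in mESC-2i, so that 7 of the 9 genes were called, 5 in the first direction and 2 in the second. Of all 15728 genes tested in this comparison 56.2% were called, 25.9% higher and 30.3% lower. EpiLC held more Wnt8a, Wnt3 and Wnt5b than mESC-2i and less Wls, Wnt6, Wnt7b, Wnt4 and Porcn. All 8 genes tested were called, 3 higher and 5 lower, beside 69.8% of 15378 genes, of which 32% were higher and 37.8% lower. Wnt9a had too few counts in both groups to be tested. Against mESC-ser, EpiLC held more Wnt5b and Wnt8a and less of Wnt7b, Porcn, Wls, Wnt9a, Wnt4 and Wnt6. Here 8 of the 9 genes were called, 2 higher and 6 lower, beside 73.3% of 15345 genes, 35.5% higher and 37.8% lower. Most of the genes tested differed between these states, and counts over so few members show nothing particular to them. The libraries of the groups did not overlap in CPM for 8 of the 9 members, beside 70.6% of genes, for 8 of the 8 tested, beside 81.8%, and for 9 of 9, beside 85.7%, in the same order of comparisons. The median log2 fold change of the members was 0.68, -1.02 and -1.88 in the 3 comparisons in this order, and that of all genes tested was -0.04, -0.11 and -0.07. Wnt4, Wnt6, Wnt7b and Wnt9a had at most 13 counts in any EpiLC library. In the EpiLC comparisons that tested them, they passed the filter on low counts through their mESC libraries and could hardly be called other than lower. The lower calls and medians of the EpiLC comparisons are thus partly set by the filter. Wnt5b in both comparisons with mESC-ser, and Wnt9a in mESC-ser against mESC-2i, likewise passed through the group where they were higher. The comparisons share libraries and are not independent of each other.

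**Figure D1:**
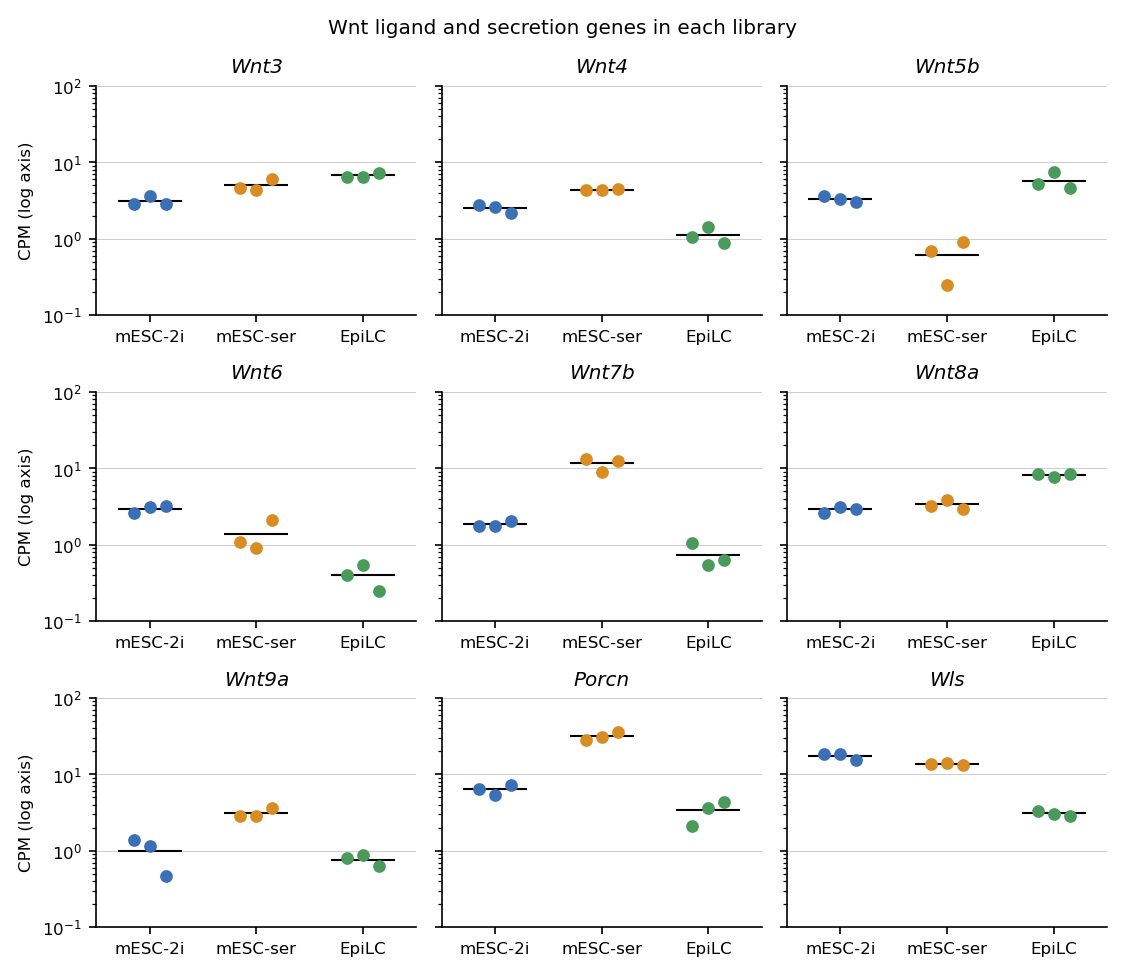
CPM of the 9 genes in each of the 9 libraries on a log axis, with the 3 replicates of a group as points in the order 1 to 3 and the group mean as a line. Wnt7b and Porcn stood highest in mESC-ser, Wnt3, Wnt5b and Wnt8a in EpiLC, and Wnt6 and Wls in mESC-2i, and Wls fell from 17.4 CPM in mESC-2i to 3.10 CPM in EpiLC.

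**Figure D2:**
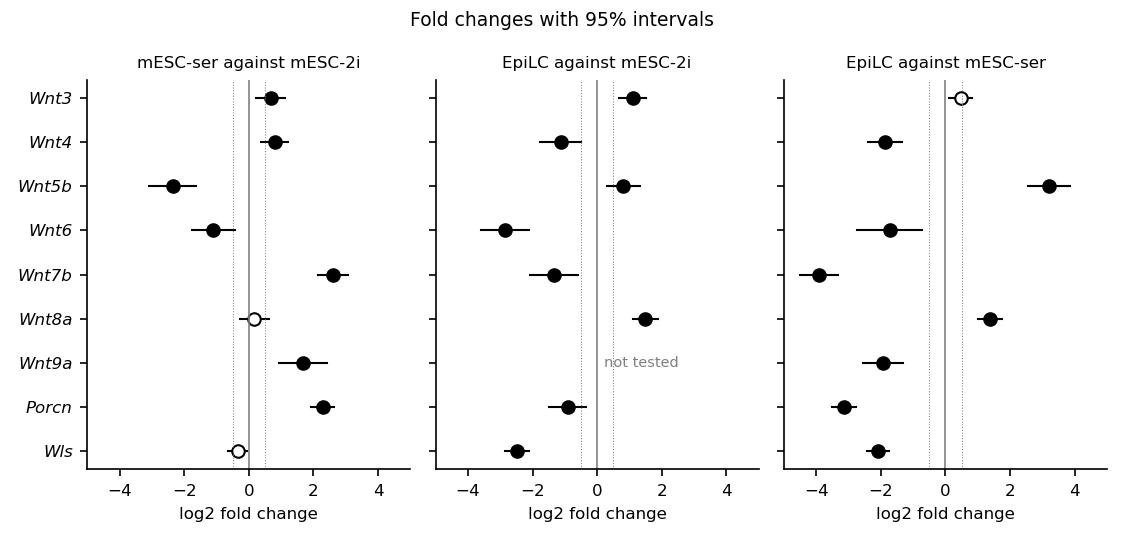
Log2 fold changes with 95% intervals for the 9 genes in the 3 comparisons, with filled points for called genes, open points for genes not called and dotted lines at the fold threshold of 0.5 in both directions. Wnt5b turned from lower in mESC-ser against mESC-2i (-2.36) to higher in EpiLC against mESC-ser (3.21), while Porcn did the opposite (2.29 and -3.16).

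The counts behind these values were small. No gene was at the floor, set at 3 counts or fewer in every library of a group, but several groups came near it, with at least 1 library of 10 counts or fewer. Wnt6 in EpiLC was the lowest, with 3, 5 and 2 counts, a sum of 10 for which the exact 95% Poisson interval is 4.8 to 18.4. Wnt7b in EpiLC summed to 18 counts (10.7 to 28.4), Wnt9a to 19 in EpiLC (11.4 to 29.7) and to 31 in mESC-2i (21.1 to 44), Wnt4 in EpiLC to 28 (18.6 to 40.5) and Wnt5b in mESC-ser to 29 (19.4 to 41.6). The remaining groups had at least 11 counts in every library. Reads carried no molecular identifiers, so these intervals cover counting error only. The only gene whose exons overlap another gene was Wnt7b, which shares 324 bp, 6.61% of its exonic length, with AU022754, an antisense RNA on the opposite strand. The library kit does not mark strand, so reads from this stretch cannot be told apart.

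Wnt8a (ENSMUSG00000012282), a ligand of the canonical branch that is expressed in the early embryo before and during gastrulation, was the most abundant ligand transcript of EpiLC per length. It had 21, 37 and 38 counts in the 3 mESC-2i libraries, 47, 47 and 52 in those of mESC-ser and 64, 71 and 68 in those of EpiLC. Its level was 2.91 ± 0.229 CPM in the mESC-2i libraries, 3.38 ± 0.477 in those of mESC-ser and 8.28 ± 0.449 in those of EpiLC. The EpiLC libraries stood above all others, and the mESC groups overlapped. In EpiLC the log2 fold change was 1.49 (SE 0.174, adjusted p = 1.73e-05) against mESC-2i and 1.37 (SE 0.171, adjusted p = 1.18e-06) against mESC-ser. Between mESC-ser and mESC-2i it was 0.17 (95% interval -0.284 to 0.626, adjusted p = 0.485), an interval that holds changes of either sign. A correction for exonic length and GC content, applied in each library, moved the value against mESC-ser to 0.66, still called.

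Wnt3 (ENSMUSG00000000125, chr11:103774150-103817957, plus strand), the canonical ligand required for the primitive streak, was lowest in mESC-2i. Counts were 23, 43 and 36 in the mESC-2i libraries, 68, 53 and 106 in those of mESC-ser and 49, 59 and 58 in those of EpiLC. In CPM these were 3.11 ± 0.419, 5.07 ± 0.908 and 6.76 ± 0.462, with no overlap between any 2 groups. Wnt3 was higher in EpiLC than in mESC-2i by 1.11 (SE 0.188, adjusted p = 0.000273). The rise in mESC-ser over mESC-2i was 0.68 (SE 0.203, adjusted p = 0.0125). Without mESC-ser replicate 3 it was 0.54 with an adjusted p of 0.0506, just short of a call. Between EpiLC and mESC-ser the difference was 0.47 (SE 0.171, adjusted p = 0.0184), which missed the fold threshold. It passed without that same library (0.62), without EpiLC replicate 2 (0.52) and in DESeq2 (0.50).

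Wnt5b (ENSMUSG00000030170, chr6:119432531-119544347, minus strand), a ligand mostly associated with beta-catenin-independent signalling, was lowest in mESC-ser. It had 29, 40 and 39 counts in the mESC-2i libraries, 10, 3 and 16 in those of mESC-ser and 39, 69 and 37 in those of EpiLC, or 3.36 ± 0.299, 0.621 ± 0.341 and 5.80 ± 1.54 CPM. The groups did not overlap. The log2 fold change was -2.36 (SE 0.332, adjusted p = 0.000124) in mESC-ser against mESC-2i and 3.21 (SE 0.311, adjusted p = 5.32e-08) in EpiLC against mESC-ser. The rise of EpiLC over mESC-2i, 0.81 (SE 0.229, adjusted p = 0.00757), was less firm. It was 0.47 (adjusted p = 0.0781) with libraries scaled by total counts alone and 0.48 (adjusted p = 0.0646) after the correction for length and GC content, neither of them called.

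Wnt7b (ENSMUSG00000022382, chr15:85535437-85582473, minus strand) showed the widest range of levels among the 7 ligands. This canonical ligand, known from lung and placenta, had 14, 21 and 26 counts in the mESC-2i libraries, 194, 109 and 216 in those of mESC-ser and 8, 5 and 5 in those of EpiLC. Levels were 1.86 ± 0.163, 11.6 ± 2.26 and 0.747 ± 0.280 CPM, every mESC-ser library lying far above the others. The log2 fold change was 2.61 (SE 0.211, adjusted p = 2.58e-06) in mESC-ser against mESC-2i, -1.33 (SE 0.334, adjusted p = 0.00374) in EpiLC against mESC-2i and -3.91 (SE 0.274, adjusted p = 8.04e-10) in EpiLC against mESC-ser.

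Wnt4 and Wnt9a were, like Wnt7b, highest in mESC-ser, at lower CPM. Wnt4 (ENSMUSG00000036856, chr4:137277489-137299726, plus strand), known from kidney and gonad development, had 22, 31 and 28 counts in the mESC-2i libraries, 63, 53 and 78 in those of mESC-ser and 8, 13 and 7 in those of EpiLC. Its CPM was 4.42 ± 0.0758 in mESC-ser, 2.52 ± 0.295 in mESC-2i and 1.12 ± 0.275 in EpiLC, and no groups overlapped. It rose by 0.79 (SE 0.190, adjusted p = 0.00376) in mESC-ser and was lower in EpiLC by -1.13 (SE 0.285, adjusted p = 0.00383) against mESC-2i and by -1.88 (SE 0.244, adjusted p = 1.95e-06) against mESC-ser. Wnt9a (ENSMUSG00000000126, chr11:59306928-59333552, plus strand), a ligand with a role in joints and cartilage, had 11, 14 and 6 counts in the mESC-2i libraries, 41, 34 and 64 in those of mESC-ser and 6, 8 and 5 in those of EpiLC. In CPM these were 1.01 ± 0.479, 3.12 ± 0.495 and 0.768 ± 0.126. mESC-2i and EpiLC overlapped, and mESC-ser stood above both. Wnt9a was higher in mESC-ser than in mESC-2i by 1.67 (SE 0.331, adjusted p = 0.0012) and lower in EpiLC than in mESC-ser by -1.94 (SE 0.291, adjusted p = 9.93e-06). Between EpiLC and mESC-2i it was -0.35 with no filter on low counts and -0.31 in a fit of all 9 libraries, and it was called in neither.

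Wnt6 (ENSMUSG00000033227, chr1:74771892-74785322, plus strand), a canonical ligand of ectoderm and somites, was highest in mESC-2i. It had 21, 37 and 41 counts there, 16, 11 and 37 in the mESC-ser libraries and 3, 5 and 2 in EpiLC. The CPM fell from 2.99 ± 0.298 in mESC-2i to 1.38 ± 0.655 in mESC-ser and 0.399 ± 0.148 in EpiLC, with no overlap between groups although mESC-ser replicate 3, at 2.13 CPM, lay well above the others of its group. The log2 fold change was -1.10 (SE 0.304, adjusted p = 0.00857) in mESC-ser and -2.85 (SE 0.339, adjusted p = 1.92e-05) in EpiLC against mESC-2i, and -1.73 (SE 0.478, adjusted p = 0.0031) in EpiLC against mESC-ser. The last value was -2.40 after the correction for length and GC content.

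Porcn and Wls, which act in succession on all these ligands, were both lower in EpiLC than in either mESC group, and Porcn was higher in mESC-ser than in mESC-2i. Porcn (ENSMUSG00000031169, chrX:8193848-8206525, minus strand) had 51, 64 and 94 counts in the mESC-2i libraries, 413, 373 and 630 in those of mESC-ser and 16, 33 and 35 in those of EpiLC. In CPM these were 6.39 ± 1.02, 31.95 ± 3.99 and 3.38 ± 1.15, and the groups did not overlap. Porcn was higher in mESC-ser than in mESC-2i by 2.29 (SE 0.159, adjusted p = 8.88e-07), a fold of 4.9. It was lower in EpiLC by -0.91 (SE 0.255, adjusted p = 0.00706) against mESC-2i and by -3.16 (SE 0.175, adjusted p = 3.98e-11) against mESC-ser. EpiLC replicate 1, with 2.13 CPM, lay below replicates 2 and 3, with 3.61 and 4.40.

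Wls (ENSMUSG00000028173, chr3:159839672-159938664, plus strand) was lowest in EpiLC. Counts were 146, 220 and 194 in the mESC-2i libraries, 200, 171 and 233 in those of mESC-ser and 25, 28 and 23 in those of EpiLC, or 17.4 ± 1.83, 13.8 ± 0.413 and 3.10 ± 0.224 CPM. The mESC groups did not overlap, the lowest mESC-2i library standing at 15.2 CPM and the highest mESC-ser library at 14.2. The log2 fold change between them was -0.35 (SE 0.130, 95% interval -0.639 to -0.062, adjusted p = 0.0346), below the fold threshold. Wls was lower in EpiLC by -2.48 (SE 0.167, adjusted p = 3.01e-07) against mESC-2i and by -2.08 (SE 0.157, adjusted p = 2.15e-09) against mESC-ser. These values moved with the treatment of gene length. The exons of Wls add up to 8792 bp, while its longest transcript has 3559 bp. With the correction for length and GC content, mESC-ser against mESC-2i became -0.93 (adjusted p = 0.000239) with the summed exons and -0.53 (adjusted p = 0.0021) with the longest transcript, called in both. EpiLC against mESC-ser became -0.98 and -1.67 in the same order, also called in both.

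Levels per length allow the genes to be set beside each other. In mESC-2i the order in CPM per kb of exon was Porcn (2.13 ± 0.341), Wls (1.97 ± 0.208), Wnt8a (1.67 ± 0.131), Wnt6 (1.36 ± 0.136), Wnt5b (1.26 ± 0.113), Wnt3 (1.01 ± 0.136), Wnt4 (0.602 ± 0.0703), Wnt7b (0.379 ± 0.0333) and Wnt9a (0.303 ± 0.144). Neighbours in this order overlapped in their libraries, apart from the steps from Wnt8a to Wnt6, from Wnt3 to Wnt4 and from Wnt4 to Wnt7b. In mESC-ser Porcn stood apart at 10.7 ± 1.33 CPM per kb. It was followed by Wnt7b (2.38 ± 0.461), Wnt8a (1.94 ± 0.273), Wnt3 (1.65 ± 0.295) and Wls (1.57 ± 0.0470), of which each overlapped the next, and then by Wnt4, Wnt9a, Wnt6 and Wnt5b, from 1.05 down to 0.234. In EpiLC Wnt8a led at 4.74 ± 0.257 CPM per kb, above Wnt3 (2.2 ± 0.150) and Wnt5b (2.18 ± 0.579), which overlapped each other. Porcn followed at 1.13 ± 0.383, and the other 5 genes lay between 0.153 and 0.352, each overlapping the next. The ratio of Porcn to Wls in these units was 1.1 ± 0.291 in the mESC-2i libraries, 6.79 ± 0.997 in those of mESC-ser and 3.26 ± 1.30 in those of EpiLC. With the longest transcript as length it was 0.509 ± 0.135, 3.14 ± 0.462 and 1.51 ± 0.603, so that Wls stood above Porcn in mESC-2i (4.88 ± 0.513 against 2.44 ± 0.390 CPM per kb) and next to Porcn, above Wnt7b, in mESC-ser (3.88 ± 0.116). In EpiLC Porcn and Wls then overlapped.

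Among all 19 mouse Wnt ligands the 7 described here made up most of the ligand transcripts, 76.6% ± 3.16 of the summed CPM per kb for mESC-2i, 80.3% ± 3.25 for mESC-ser and 96.8% ± 0.708 for EpiLC. As the 7 were chosen with earlier results of these data known, their high share is not an independent result. The sum itself was 8.6 ± 0.146, 11 ± 0.904 and 10.3 ± 0.309 CPM per kb in mESC-2i, mESC-ser and EpiLC. The order of mESC-2i and EpiLC in this sum depends on the scaling. With libraries scaled by total counts alone the means were 9.46 ± 0.139, 11.5 ± 0.797 and 8.93 ± 0.227, EpiLC then lying below mESC-2i. The make-up of the sum also differed between the groups. In mESC-2i Wnt8a (19.4%), Wnt6 (15.8%), Wnt5b (14.7%), Wnt11 (13.5%) and Wnt3 (11.7%) had comparable shares. In mESC-ser Wnt7b (21.7%), Wnt8a (17.9%) and Wnt3 (15%) led, followed by Wnt4 (9.64%) and Wnt9a (8.5%). In EpiLC Wnt8a (46.2%), Wnt3 (21.4%) and Wnt5b (21.2%) took most of the sum, and with the longest transcript as length Wnt3 and Wnt5b changed places. The number of ligands with more than 3 counts was 10 to 12 per library in mESC-2i, 13 to 16 in mESC-ser and 6 to 8 in EpiLC, a number that also depends on depth.

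**Figure D3:**
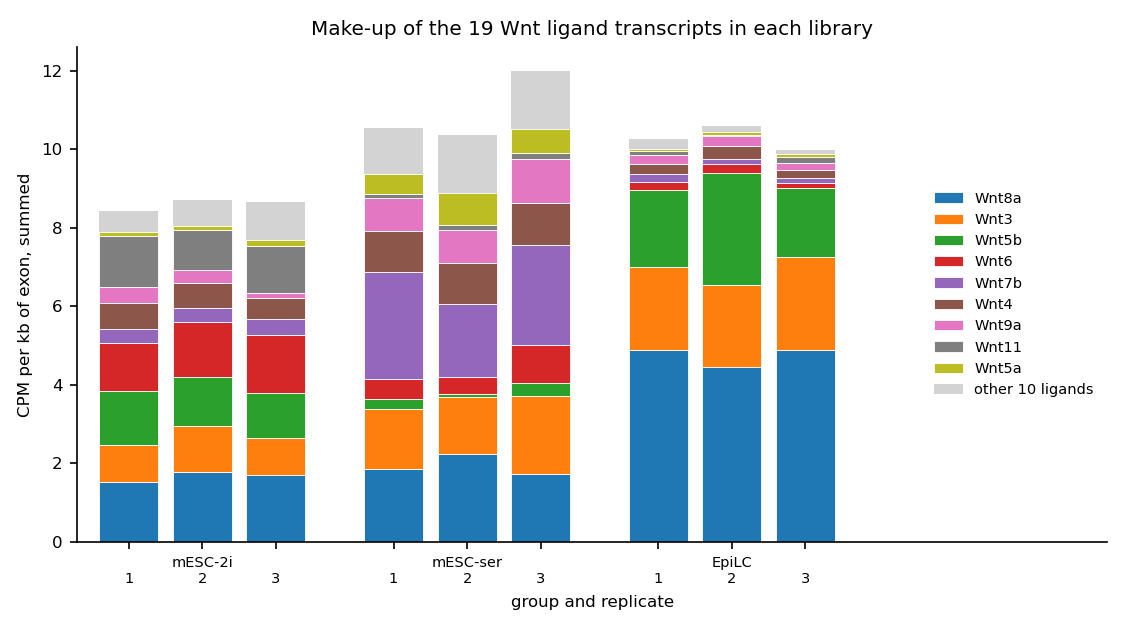
Summed CPM per kb of exon of the 19 Wnt ligand genes in each library, stacked by ligand, with the 10 ligands that are not named in the legend added up in light grey. Bar heights run from 8.44 in mESC-2i replicate 1 to 12.0 in mESC-ser replicate 3, and Wnt8a, Wnt3 and Wnt5b fill the EpiLC bars.

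Of the other 12 ligands 4 were tested in mESC-ser against mESC-2i, with 2 higher and 1 lower, 1 in EpiLC against mESC-2i, which was lower, and 2 in EpiLC against mESC-ser, both lower, beside 56.2%, 69.8% and 73.3% of all genes tested that were called. Those tested in the EpiLC comparisons, Wnt11, Wnt5a and Wnt7a, had at most 5 counts in any EpiLC library. They passed the filter on low counts through their mESC libraries and could hardly be called other than lower. Wnt5a and Wnt11, both mostly associated with beta-catenin-independent signalling, reached the levels of the 7. Wnt5a had 7, 9 and 14 counts in the mESC-2i libraries, 59, 76 and 86 in those of mESC-ser and 2, 5 and 4 in those of EpiLC. It was higher in mESC-ser than in mESC-2i by 2.43 (SE 0.277, adjusted p = 2.79e-05) and lower in EpiLC than in mESC-ser by -3.40 (SE 0.340, adjusted p = 7.71e-08). Wnt5b, its closest relative among the ligands described above, moved the other way in both comparisons. Wnt11 had 42, 50 and 63 counts in the mESC-2i libraries, 6, 6 and 11 in those of mESC-ser and 3, 1 and 5 in those of EpiLC, and was lower than in mESC-2i by -3.20 in mESC-ser (SE 0.260, adjusted p = 2.66e-06) and by -3.66 in EpiLC (SE 0.383, adjusted p = 7.48e-06). Wnt11 and Wnt5a overlap a gene on the opposite strand over 8.8% and 4.58% of their exonic length.

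Wnt7a, the closest relative of Wnt7b, had 3, 11 and 10 counts in the mESC-2i libraries, 25, 14 and 23 in those of mESC-ser and 2, 1 and 0 in those of EpiLC. It was called higher in mESC-ser than in mESC-2i, by 0.92 (SE 0.345, adjusted p = 0.0368), a call lost with the replicate number as a block (0.91), in DESeq2 (0.97) and without mESC-2i replicate 1 (0.70), mESC-ser replicate 1 (0.78) or mESC-ser replicate 3 (0.99). In EpiLC against mESC-ser it was lower by -3.35 (SE 0.576, adjusted p = 4.49e-05). Wnt3a, the ligand most used to stimulate cells in culture, had 5, 5 and 12 counts in mESC-2i, 6, 15 and 16 in mESC-ser and 0 in every EpiLC library, where the sum over 3 libraries has an exact 95% Poisson upper limit of 3.69 counts. Between mESC-ser and mESC-2i it differed by 0.30 (95% interval -0.733 to 1.337), which leaves a change of either sign possible. Wnt2b, Wnt9b, Wnt10a, Wnt10b and Wnt16 reached more than 3 counts in at least 1 library and were not tested. Of these Wnt2b had the highest single count, 14 in mESC-ser replicate 3. Wnt1, Wnt2 and Wnt8b did not exceed 3 counts in any library.

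Several of these genes lie beside each other in the genome. Wnt6 and Wnt10a lie 6.19 kb apart on chromosome 1 on the same strand. Wnt10a had 1 to 3 counts in mESC-2i, where Wnt6 was highest, and 3 to 9 in mESC-ser. Wnt9a and Wnt3a lie 16.2 kb apart on chromosome 11 and are transcribed away from each other. Both had their highest mean CPM in mESC-ser and their lowest in EpiLC, where Wnt3a had no count and Wnt9a had 5 to 8. Wnt3 and Wnt9b, 24.3 kb apart on chromosome 11 and also divergent, differed widely in level. Wnt9b had at most 6 counts in any library, too few to compare the order of the groups.

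The promoters were looked at for the core site of the Tcf/Lef factors, which bring beta-catenin to its target genes. RefSeq promoter windows (GRCm38.p6, 250 bases before to 50 after a start site) were found for 6 of the 9 genes, Wnt3, Wnt4, Wnt5b, Wnt6, Wnt9a and Wls, in 8 windows. The letters CTTTGAT were searched on both strands. They occurred in 1 of the 8 windows and in 3.73% of all 32851 promoter windows. The match lies 71 bases before an internal start site of Wnt5b. It is shown in capitals within a stretch on the minus strand at chr6:119449440-119449468.
Wnt5b: agtaagtctctCTTTGATctgctccctgt
No match says only that these letters are not in a window. The windows also differed in CpG content. Wnt9a held 58 CpG dinucleotides, Wnt4 51, the outermost Wnt5b start 47, Wnt6 31, Wnt3 24 and Wls 11, while the internal Wnt5b starts held 4 and 7, beside a median of 7 over all windows.

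The genes whose log2 CPM followed each member most closely over the 9 libraries give a further description of the patterns, among 10219 protein-coding genes. The libraries fall into 3 groups, so these correlations describe the group pattern, and Wnt9a, not tested in every comparison, was left out. Wnt3 was most like Irf2bp1, Mepce and Marveld1 (Pearson r from 0.981 to 0.993) and Wnt4 most like Scaper, Prpf6 and Axin1 (0.992 to 0.994), the last a scaffold of the beta-catenin destruction complex. Wnt5b resembled Nrcam, Nek3 and Zfp688 (0.976 to 0.981), and Wnt6 resembled Zfp777, Zfp64 and Pdxdc1 (0.985 to 0.992). Wnt7b followed Itga6, Uba6 and Pax6 (0.993 to 0.994), and Wnt8a followed Ddx47, Aagab and Yrdc (0.993 to 0.996). For Porcn they were Bcr, Lmnb1 and Ssh2 (0.994 to 0.995), and for Wls Htra1, Khdc3 and Cyfip1 (0.996 to 0.998). Among the members themselves Porcn and Wnt7b had the highest correlation, 0.95, and Wnt8a and Wls the lowest, -0.982.

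Beyond Porcn and Wls, release needs the machinery that recycles Wls, namely retromer (Vps26a, Vps29 and Vps35) with the sorting nexin Snx3, and the p24 cargo receptors Tmed2, Tmed5 and Tmed10. All 7 genes were tested in each comparison, and 4, 3 and 4 of them were called, beside 56.2%, 69.8% and 73.3% of all genes tested. In mESC-ser against mESC-2i 1 was higher and 3 lower (median log2 fold change -0.50). The largest were Vps26a (-1.40), Snx3 (-1.06) and Tmed5 (0.79), and Tmed5 dropped to 0.08 after the correction for length and GC content, no longer called. For EpiLC against mESC-2i 1 was higher, Vps29 (0.68), and 2 lower, Vps35 (-1.34) and Vps26a (-1.04), with a median of -0.42. The rise of Vps29 was not called with total-count scaling (0.34). In EpiLC against mESC-ser 2 were higher, Snx3 (1.41) and Vps29 (1.22), and 2 lower, Tmed5 (-1.18) and Vps35 (-1.04), with a median of 0.39. After the correction Tmed5 was -0.09 and not called. Vps29, Vps35, Tmed5 and Tmed10 share exonic bases with genes on the opposite strand, over 5.53%, 1.92%, 5.14% and 1.22% of their length. In EpiLC against mESC-2i the retromer subunits thus moved in both directions.

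Scd1 and Scd2 are the desaturases that make the monounsaturated fatty acid used by Porcn. Scd1 had 2880, 4062 and 4091 counts in the mESC-2i libraries, 950, 733 and 1319 in those of mESC-ser and 1858, 2107 and 1754 in those of EpiLC. Scd2 had 9595, 13304 and 14788, 5227, 4206 and 7855, and 3894, 4659 and 4130 counts. Both were lower in mESC-ser than in mESC-2i, where 30.3% of all genes tested were called lower, by -2.36 for Scd1 (SE 0.112, adjusted p = 7.59e-08) and by -1.61 for Scd2 (SE 0.119, adjusted p = 1.41e-06), the comparison in which Porcn rose. In EpiLC against mESC-2i Scd2 was lower by -1.17 (SE 0.093, adjusted p = 9.81e-07), while the fall of Scd1, -0.55 (SE 0.094, adjusted p = 0.000264), was not called with RLE scaling or in DESeq2 (both -0.49), without mESC-2i replicate 1 (-0.48) or after the correction for length and GC content (-0.28). In EpiLC against mESC-ser Scd1 was higher by 1.86 (SE 0.090, adjusted p = 7.81e-12) and Scd2 by 0.48 (SE 0.090, adjusted p = 0.000105), below the fold threshold, which Scd2 passed with RLE scaling and in DESeq2 (both 0.51), after the correction for length and GC content (0.86), without mESC-ser replicate 3 (0.60) and without EpiLC replicate 2 (0.51).

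Of 16 receptor and co-receptor genes, all tested, 6 were higher and 4 lower in mESC-ser against mESC-2i (median 0.34), 3 higher and 5 lower in EpiLC against mESC-2i (median -0.08), and 4 higher and 5 lower in EpiLC against mESC-ser (median -0.24). Called were thus 10, 8 and 9 of 16, beside 56.2%, 69.8% and 73.3% of all genes tested, so the receptors do not stand out from the background. Fzd10, a Frizzled receptor, had 970, 1628 and 1524 counts in the mESC-2i libraries, 237, 177 and 339 in those of mESC-ser and 55, 76 and 69 in those of EpiLC. It was lower by -2.92 in mESC-ser (SE 0.124, adjusted p = 4.28e-08) and by -3.96 in EpiLC (SE 0.115, adjusted p = 1.41e-09) against mESC-2i. In mESC-ser against mESC-2i Ror1, a receptor of Wnt5a, rose by 2.27 and Fzd7, another Frizzled receptor, by 2.11. In EpiLC Fzd2 rose by 2.69 against mESC-2i and by 2.28 against mESC-ser, and Fzd5 was lower by -2.46 and -3.11. The fall of Lrp6 in EpiLC against mESC-ser, -2.0, was -0.62 and called after the correction for length and GC content and -0.44 and not called with the longest transcript as length. Fzd5 shares 17.8% of its exonic length with a gene on the opposite strand.

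A further 9 genes set how long receptors stay at the surface. Rnf43 and Znrf3 remove Frizzled receptors, and R-spondins, bound by Lgr4, Lgr5 and Lgr6, block them. In mESC-ser against mESC-2i 5 were tested, 2 higher and 2 lower (median 0.25), in EpiLC against mESC-2i 5 were tested, 2 higher and 3 lower (median -0.94), and in EpiLC against mESC-ser 3, 1 higher and 1 lower (median -0.49). The shares of all genes tested that were called in these comparisons were 56.2%, 69.8% and 73.3%. Rnf43 had 67, 99 and 166 counts in the mESC-2i libraries, 16, 9 and 19 in those of mESC-ser and 2, 2 and 1 in those of EpiLC. It was lower by -3.34 in mESC-ser (SE 0.266, adjusted p = 2.33e-06) and by -5.54 in EpiLC (95% interval -6.405 to -4.666), where it was at the floor. Lgr4 was higher by 1.67 in mESC-ser and by 1.14 in EpiLC against mESC-2i. Rspo1, an R-spondin, had 11, 13 and 27 counts in the mESC-2i libraries, 48, 48 and 84 in those of mESC-ser and 65, 103 and 83 in those of EpiLC. It rose by 1.35 (SE 0.278) in mESC-ser and by 2.69 (SE 0.248) in EpiLC against mESC-2i and by 1.39 (SE 0.173) in EpiLC against mESC-ser. The fall of Znrf3 in EpiLC against mESC-ser, -1.14, was -0.42 and not called after the correction for length and GC content.

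Among the extracellular inhibitors of Wnt ligands, of 18 genes 13 were tested in mESC-ser against mESC-2i, with 2 higher and 8 lower (median -1.36), beside 25.9% and 30.3% of all genes tested, and 12 in EpiLC against mESC-2i, with 1 higher and 9 lower (median -2.53), beside 32% and 37.8%. In EpiLC against mESC-ser 9 were tested, with 2 higher and 4 lower (median -0.44), beside 35.5% and 37.8%. Dkk1, Frzb, Wif1, Trabd2b and Apcdd1 had at most 8 counts in any EpiLC library, and Frzb and Wif1 at most 4 in any of mESC-ser. Against mESC-2i these genes passed the filter on low counts through their mESC-2i libraries and could hardly be called other than lower. The lower calls and medians against mESC-2i are thus partly set by the filter. Notum, an enzyme that removes the fatty acid that Porcn adds, had 759, 1240 and 1521 counts in the mESC-2i libraries, 561, 485 and 828 in those of mESC-ser and 13, 15 and 14 in those of EpiLC. It was lower in EpiLC by -5.95 (SE 0.157, adjusted p = 7.73e-10) against mESC-2i and by -4.55 (SE 0.159, adjusted p = 2.07e-13) against mESC-ser. The antisense gene Notumos covers 29.4% of its exonic length. Dkk3, of the Dickkopf family, had 273, 390 and 345 counts in the mESC-2i libraries, 27, 21 and 44 in those of mESC-ser and 12, 13 and 11 in those of EpiLC, lower by -3.93 and -4.41 against mESC-2i. Sfrp1, a secreted Frizzled-like protein, was lower by -1.80 in mESC-ser against mESC-2i and by -1.96 in EpiLC against mESC-ser. Apcdd1, an inhibitor at the cell membrane, was lower in EpiLC by -4.37 against mESC-2i and by -2.96 against mESC-ser. Sfrp5 was higher in mESC-ser than in mESC-2i by 1.98, from 4 to 7 counts in the mESC-2i libraries to 28 to 31. Sfrp2, a relative of Sfrp1 named because it was the 1 inhibitor called higher in EpiLC against mESC-2i, rose there by 3.13, and a gene on the opposite strand covers 16.1% of its exonic length.

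**Figure D4:**
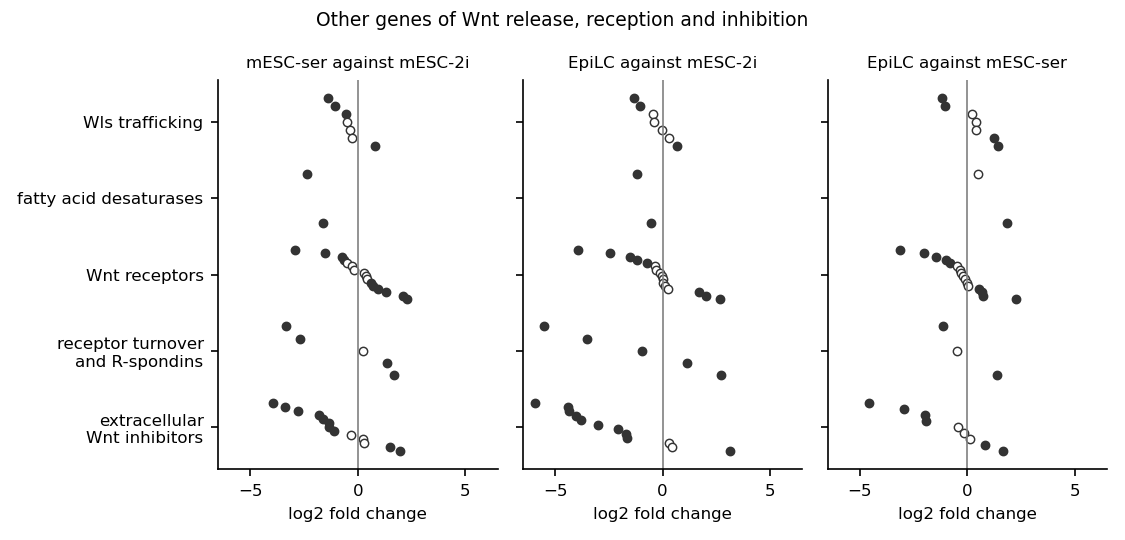
Log2 fold changes of the tested genes of the 5 other lists in the 3 comparisons, each gene a point, filled where called. The inhibitors lie mostly to the left in both comparisons against mESC-2i, where several were tested only through their mESC-2i counts. The receptors lie on both sides of 0 in all 3.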

How the data were processed

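The 9 genes and all gene lists were chosen with earlier results of these data known. The authors trimmed 50 bp single-end poly-A reads with Trim Galore 0.6.6, aligned them to mm10 with HISAT2 2.2.1 and counted them per gene with featureCounts (Subread 2.0.1). The deposited values are raw counts per gene, with no normalization. The annotation release, strand setting and treatment of multi-mapping reads are not given in the sources used here. Columns headed SL were taken as serum with LIF. Symbols, positions and exonic length come from GENCODE M21, which matched 36429 genes (95.1%).

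For each comparison the 6 libraries concerned were fitted with edgeR 4.0.16 (R 4.3.3, limma 3.58.1) by filterByExpr, TMM and the quasi-likelihood F-test, with Benjamini-Hochberg adjustment over all genes tested. The thresholds follow the study's methods, which call significance at an (adjusted) p under 0.05 and use a fold threshold of 0.5. The nominal p of 0.01 that they state for another experiment was an alternative. SE values come from the F statistic. A prior count of 2 entered log2 CPM for correlations. Steps were tested on simulated data. The 9 members and 12 other ligands were named by list. Each further list contributed its 3 called genes of largest change whose higher group averaged 20 counts or more, and Sfrp2 was added after its values were seen.

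Deviations from the group means of same-numbered libraries correlated at 0.144 to 0.365 between mESC-ser and mESC-2i, all over 0.1, and those of other pairs at -0.299 to 0.161. These ranges overlap, and no label gives the meaning of the numbers. They were therefore taken only as a possible pairing. The main fits did not use it, and a replicate block was run as an alternative. Whether replicates came from separate cultures is not stated beyond the words biological replicate.

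Alternatives were RLE or total-count scaling, DESeq2 1.42.0, no filter on low counts, a minimum of 10 counts in each library, all 9 libraries in one fit, a replicate block, splines (5 degrees of freedom) of length and GC content, other thresholds and leaving out each library. The same correction with the longest transcript as length and the total-count scaling and longest-transcript lengths of the summed ligand level and of the ratio of Porcn to Wls were added after seeing the data.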

Additional observations from a re-analysis of the deposited data

How the results depend on the processing

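Of 458 values of the 26 member results under alternatives, 444 kept their direction and their side of the threshold, 7 lost the call, 7 gained one and 0 changed sign. Besides those given above, an absolute log2 fold change over 1 drops Wnt3 and Wnt4 in mESC-ser against mESC-2i and Wnt5b and Porcn in EpiLC against mESC-2i, by construction, and no fold threshold adds Wls in mESC-ser against mESC-2i and Wnt3 in EpiLC against mESC-ser. With at least 10 counts in every library 5 members were called in EpiLC against mESC-2i and 3 against mESC-ser, since fewer could be tested. Leaving out a library gave 6 to 7, 8 to 8 and 8 to 9 members called in the 3 comparisons, and 8581 to 9391, 10608 to 11059 and 11183 to 11446 genes. The lowest, 6, was without mESC-ser replicate 3. With an absolute log2 fold change over 1, 4935 genes passed between mESC-ser and mESC-2i. The replicate block changed no member call. It left 7, 8 and 8 members and 8953, 10759 and 11207 genes called. In the EpiLC comparisons same-numbered libraries correlated at 0.0144 to 0.128 and 0.0124 to 0.0364, not all over 0.1. Other pairs there correlated at -0.131 to 0.0112 and -0.0411 to 0.0252. These values do not settle whether the numbers pair libraries in the EpiLC comparisons. Total-count scaling moved the share of higher calls among all calls from 45.9% to 33.7% in EpiLC against mESC-2i (median of all genes -0.45) and from 48.4% to 37.4% in EpiLC against mESC-ser (median -0.41). Low counts limit Wnt6, Wnt7b, Wnt9a and Wnt4 in EpiLC, Wnt9a in mESC-2i and Wnt5b in mESC-ser.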
